A study of Mus musculus with 117 samples.

Results

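Trimethylation of lysine 27 of histone H3 (H3K27me3) was mapped by ChIP-seq in mouse embryonic fibroblasts (MEF) and in mouse embryonic stem (ES) cells, and the deposited peaks of both cell types are described here. After lines with the same peak coordinates were collapsed, the MEF list held 11276 peaks and the ES list 5237, together 16513 of the 563630 peaks in the 32 peak lists of the series. A peak was counted as shared when it overlapped a peak of the other cell type by at least 1 bp, and as cell-specific otherwise. The series (117 samples, of which 78 are ChIP-seq, 28 RNA-seq and 11 ATAC-seq) concerns SUMO, a small protein conjugated to other proteins by the enzyme Ubc9. The MEF were wild type, taken from embryos at E13.5 and used at passage 1. The ES cells were wild type and at passages 15 to 20, and the labels name no line. The same H3K27me3 antibody was used in both, with 2 replicates per cell type that were joined into 1 list before deposit.

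With 1 list per cell type there was no spread between replicates, and no test between the cell types was made on the peaks. Shares are given with Wilson 95% intervals, which cover counting error only, since neighbouring peaks are not independent. The read depth behind each list is unknown. MEF expressing Oct4, Klf4, Sox2 and Myc (OKSM) for 4 days together with a control hairpin (D4 shCtrl), also from E13.5 embryos and at passage 1, served as a further condition for the same antibody. Lists of D4 cells with Ubc9 depleted by a hairpin (D4 shUbc9, E13.5, passage 1) and of ES cells with a control siRNA (siCtrl, passages 15 to 20) were also used. Transcripts of the Polycomb genes came from other cultures. These were 3 MEF libraries with a control hairpin (shCtrl, E13.5, passage 1) and 3 ES libraries with a control siRNA (siCtrl, passages 15 to 20). Their marker genes matched the labels: the summed level of 10 fibroblast markers was 20560 to 25500 CPM (counts scaled to a common library size) in the MEF libraries and 288 to 312 in the ES libraries, and that of 10 ES markers was 1.27 to 1.5 and 3375 to 3772 CPM. Markers of other cell types summed to at most 57.4 CPM in the MEF libraries, and in the ES libraries to at most 57.0 CPM except for 4 epithelial markers (588 to 596 CPM). Of these, Cdh1 (mean 425.4 CPM) and Epcam (154.3) made up nearly all of the sum. Krt8 and Krt18 stood at 5.5 and 7.3 CPM in ES cells, near their MEF means of 4.1 and 7.7. The macrophage markers Ptprc, Adgre1 and Csf1r had means of 4.5, 14.8 and 15.1 CPM in MEF and 0.11, 0 and 0.38 in ES cells. The remaining macrophage marker, Cd68, had 7.9 CPM in MEF and 42.1 in ES cells.

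H3K27me3 is placed by Polycomb repressive complex 2 (PRC2), whose catalytic subunit is Ezh2 or Ezh1, and marks genes that are kept silent, many of them regulators of development. The complex PRC1 can recognise the mark through its Cbx subunits and compacts chromatin. In ES cells many such promoters also carry H3K4me3, a mark of active or poised promoters, and are called bivalent. H3K27 cannot be acetylated and methylated at once on the same histone tail, so H3K27ac, found at active promoters and enhancers, is the opposite state of the same residue.

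Most H3K27me3 peaks of MEF had no counterpart in the ES list, whereas the ES peaks divided more evenly into shared and cell-specific ones. Of the MEF peaks, 2024 touched an ES peak (17.9%, 95% interval 17.3 to 18.7) and 9252 did not. Of the ES peaks, 2323 touched a MEF peak (44.4%, 95% interval 43.0 to 45.7) and 2914 did not. The MEF peaks covered 18.4 Mb and the ES peaks 8.04 Mb, with 3.95 Mb in both, which was 21.4% of the MEF bases and 49.1% of the ES bases. The lists differed in length, so these shares depend on how many peaks were called: with the MEF list limited to as many highest-scoring peaks as the ES list, 30.1% of MEF and 36.8% of ES peaks were shared. Few peaks lay near the limit of the rule. Only 11 of the shared MEF peaks and 10 of the shared ES peaks overlapped by 100 bp or less, and 42 MEF-only and 31 ES-only peaks lay within 100 bp of the other list. The median distance to the nearest peak of the other cell type was 109374 bp for MEF-only peaks and 120418 bp for ES-only peaks.

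Shared peaks were the wider ones in both cell types. The shared MEF peaks had a median width of 2223 bp, against 1076 bp for MEF-only peaks, and the shared ES peaks 1514 bp, against 964 bp for ES-only peaks. Peaks of 5 kb or more made up 13.3% of the shared MEF peaks (270 peaks) and 1.19% of the MEF-only peaks (110). In the ES list they made up 5.04% of the shared peaks (117) and 0.652% of the ES-only peaks (19). A wider peak can touch another peak more easily, and how far this alone sets the difference was not tested.

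**Figure D1:**
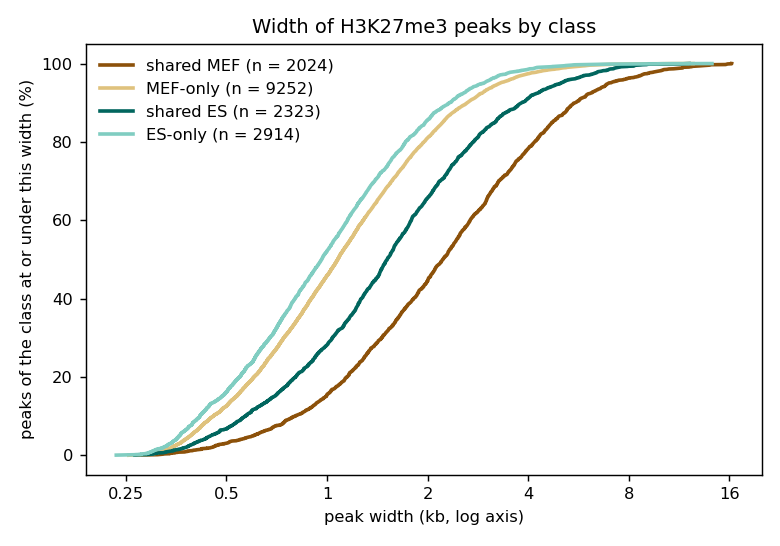
Cumulative share of peaks (percent, vertical axis) against peak width (kb, log axis) for the 4 classes of H3K27me3 peaks. Both shared classes lie to the right of both cell-specific classes, with medians of 2223 bp (shared MEF) and 1514 bp (shared ES) against 1076 bp (MEF-only) and 964 bp (ES-only).

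Where peaks of both cell types overlapped, the MEF peak was usually the broader one. There were 2544 overlapping pairs, and the MEF peak was wider in 70.9% of them, with a median ratio of MEF to ES width of 1.46 (quartiles 0.937 and 2.90). The ES peak lay entirely inside the MEF peak in 48.8% of pairs, and the MEF peak inside the ES peak in 11.4%. The median overlap was 1234 bp. A total of 406 MEF peaks spanned 2 or more ES peaks, at most 6, while 207 ES peaks spanned 2 or more MEF peaks, at most 3. Over the whole lists the median widths were close, 1199.5 bp in MEF and 1178 bp in ES cells, and peaks of 5 kb or more made up 3.37% and 2.60%. A peak that spanned several peaks of the other list entered once for each. The part of this counting and of the list lengths in the difference between paired peaks was not tested.

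The share of peaks in common was higher among wide peaks and among peaks ranked high by the authors' score, which orders the peaks of a list by their strength of call and was used only as a rank. Among the widest 10% of MEF peaks (3223 to 16256 bp) 55.5% were shared, against 5.05% of the narrowest 10%. The same classes of the ES list were shared in 74.2% and 23.9%. By score, 57.9% of the highest-ranked 10% of MEF peaks and 69.4% of those of ES were shared, against 7.98% and 24.4% of the lowest-ranked. The lower MEF score classes did not rise evenly, with 7.98%, 2.75%, 11.2%, 4.17% and 9.23% from the lowest upward. The median rank of shared MEF peaks was the 80.9th percentile of their list and that of MEF-only peaks the 44.0th, and in ES cells the medians were the 61.7th and the 40.5th. Width and score did not replace each other. Within the widest of 3 equal width classes of MEF peaks, 42.8% of those scored in the higher 50% of the list were shared and 11.7% of the others, and in the narrowest class these shares were 10.7% and 4.27%. In ES cells the corresponding shares were 64.9% and 51.8% in the widest class and 34.8% and 25.9% in the narrowest. Width still varied within a class (1675 to 16256 bp in the widest of MEF), and its part in these score contrasts was not tested.

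**Figure D2:**
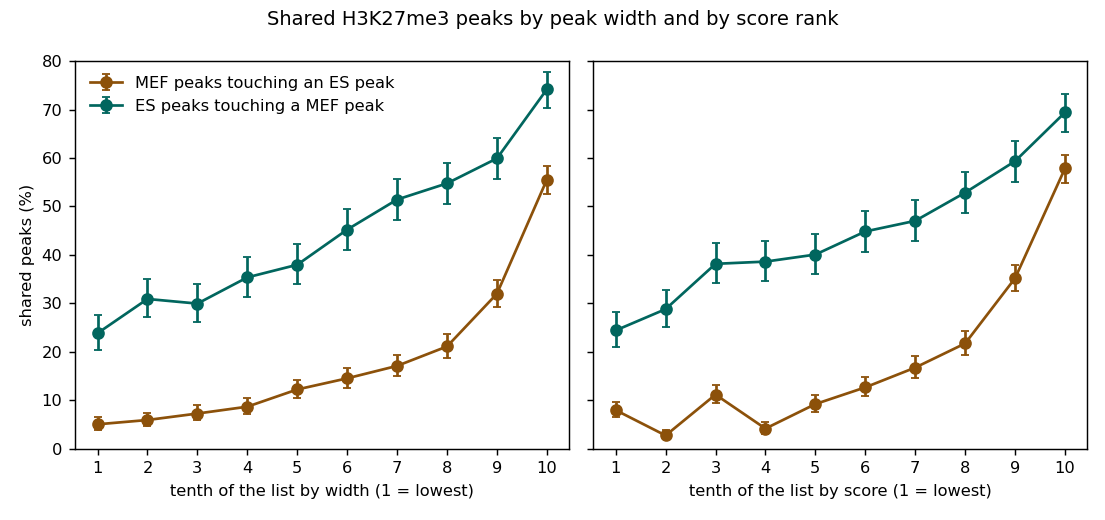
Percent of H3K27me3 peaks shared with the other cell type (vertical axis) in 10 classes of equal size by width (left) and by score (right), 1 being the lowest, with Wilson 95% intervals as bars. In the highest class by width 55.5% of MEF and 74.2% of ES peaks were shared; peaks of equal score were kept in genome order, and many of the low MEF scores were tied.

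Individual peaks show the range of these classes. Positions are on build mm9 and carry no gene names, since no annotation of that build was used here. The widest MEF peak, chr4:115604730-115620985, measured 16256 bp, and 68.9% of it was covered by ES peaks. The widest shared ES peak, chr4:139376687-139388807, measured 12121 bp and lay wholly within MEF H3K27me3. The MEF peak with the highest score of all (533) was cell-specific: chr6:51132932-51143711, 10780 bp wide, ended 2211 bp from the nearest ES peak. The widest MEF-only peak, chr16:91218305-91230762, measured 12458 bp, lay 385175 bp from any ES peak, and overlapped H3K4me3 and H3K27ac peaks of ES cells. The widest ES-only peak, chr12:9577516-9591707, measured 14192 bp, lay 1034610 bp from any MEF peak, and overlapped both H3K4me3 and H3K27ac peaks of MEF. The second widest of each class overlapped neither mark in the other cell type: chr6:51132932-51143711 in MEF, and the ES-only peak chr2:116377668-116387785 of 10118 bp.

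Peaks lay in groups, and the 4 largest groups by summed peak width were the same places in both cell types, while the fifth differed. Joining peaks within 10 kb gave 5252 MEF regions and 2772 ES regions, of which 20.9% and 40.1% held or touched a peak of the other list. Regions of 5 or more peaks did so in 58.5% of cases in MEF (of 475) and 75.7% in ES cells (of 169), and regions of a single peak in 11.03% and 29.3%. A longer region, gaps between its peaks included, can hold a peak of the other list more easily, and the part of this was not tested. The 4 regions with the largest summed peak width in MEF overlapped the 4 with the largest in ES cells. The first, chr15:102728075-102903402, held 58 MEF peaks with a summed width of 151228 bp and 45 ES peaks with 109506 bp. The second, chr11:96090789-96244441, held 40 and 35 peaks. The third, chr6:52114042-52288264, held 48 and 42, and the fourth, chr2:74481338-74611896, held 41 and 38. Their H3K4me3 peaks numbered 2, 5, 10 and 3 in MEF and 13, 6, 13 and 13 in ES cells, and H3K27ac peaks numbered 0, 1, 6 and 1 in MEF and 0 in all 4 in ES cells. These counts depend on the MEF boundaries: the overlapping ES region chr6:52099359-52227117 held 8 H3K27ac peaks of MEF and 1 of ES cells. The fifth MEF region, chr7:86625005-86779780, held 33 MEF and 14 ES peaks, and the fifth ES region, chr7:77466768-77517399, held 4 MEF and 20 ES peaks.

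The largest cell-specific regions differed in what the other cell type carried there. The largest MEF region with no ES peak, chr11:96297532-96426484, held 43 MEF peaks with a summed width of 68167 bp, no H3K27ac peak of either cell type and 1 ES H3K4me3 peak. The second, chr16:91211134-91334921, held 20 MEF peaks together with 6 H3K4me3 and 7 H3K27ac peaks of ES cells. A further one, chr3:34536981-34572827, held 13 MEF peaks and 5 peaks of each of these marks in ES cells. The largest ES region with no MEF peak, chr8:87294557-87325756, held 11 ES peaks and, in MEF, 4 H3K4me3 and 5 H3K27ac peaks. The next, chr2:115882610-115904027, held 13 ES peaks and, in MEF, 4 H3K4me3 and 6 H3K27ac peaks. Each of the 5 largest ES-specific regions held 3 to 6 H3K27ac peaks of MEF and none of ES cells, whereas 3 of the 5 largest MEF-specific regions held H3K27ac peaks of ES cells.

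**Figure D3:**
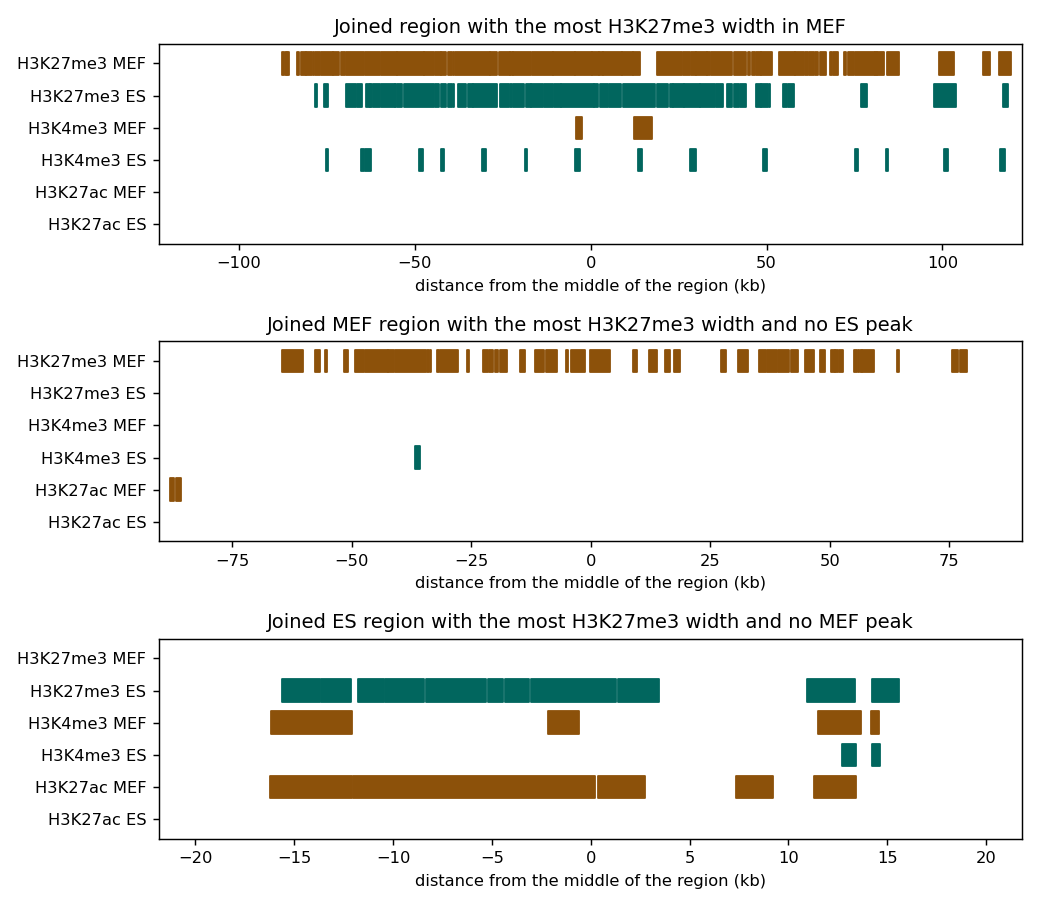
Peaks of H3K27me3, H3K4me3 and H3K27ac in MEF (brown) and ES cells (green) over 3 joined regions, drawn as bars against the distance from the middle of the region (kb). The top region holds 58 MEF and 45 ES H3K27me3 peaks, the middle one 43 MEF and 0 ES peaks, and the bottom one 11 ES and 0 MEF peaks with 5 H3K27ac peaks of MEF.

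H3K27me3 together with H3K4me3 in the same cells was common in ES cells and uncommon in MEF. In ES cells 48.8% of all H3K27me3 peaks overlapped an H3K4me3 peak, and in MEF 2.62%. By class the shares were 54.9% of shared ES peaks (95% interval 52.9 to 56.9), 43.9% of ES-only peaks (42.1 to 45.7), 8.40% of shared MEF peaks (7.27 to 9.69) and 1.35% of MEF-only peaks (1.14 to 1.61). Counted from H3K4me3, 8.72% of the 26309 ES peaks and 1.77% of the 15052 MEF peaks touched H3K27me3 of the same cells. The H3K4me3 lists differed in length and in their lowest listed score, which was 220 in ES cells and 530 in MEF. With the ES H3K4me3 list limited to as many peaks as that of MEF, the shares were 26.9% of shared ES and 28.3% of ES-only peaks, still above both MEF classes but no longer higher for the shared class.

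The difference in H3K4me3 between shared and ES-only peaks went with their width. Within 3 equal width classes of the ES list, from narrow to wide, H3K4me3 lay on 27%, 50% and 71.4% of the shared peaks and on 24.6%, 50.4% and 70.2% of the ES-only peaks. In MEF the shared peaks exceeded the MEF-only peaks in each width class, with 8.51%, 12.9% and 6.61% against 0.936%, 1.54% and 1.70%. The H3K4me3 peaks concerned held different ranks in their own lists. In MEF the 157 H3K4me3 peaks on shared H3K27me3 had a median score percentile of 9.90 and the 114 on MEF-only peaks 14.2, against 50.9 for those without H3K27me3. In ES cells the 1174 H3K4me3 peaks on shared H3K27me3 were at 40.4, the 1182 on ES-only peaks at 48.6 and the others at 51.4.

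H3K4me3 covered part of the H3K27me3 peak rather than the whole. Among shared ES peaks with H3K4me3 (1276), the median peak was covered over 42.1% of its width (quartiles 26.9 and 62.1), and among ES-only peaks with H3K4me3 (1280) over 48.0% (26.3 and 81.6). Shared ES peaks with H3K4me3 had a median width of 1848.5 bp and those without 1128 bp, and for ES-only peaks these were 1305.5 and 745.5 bp. The summit of the H3K27me3 peak lay under H3K4me3 in 46.9% and 49.8% of them.

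MEF peaks that were shared lay mostly at sites with H3K4me3 in ES cells. Of the shared MEF peaks 63.1% overlapped an ES H3K4me3 peak (95% interval 61.0 to 65.2), against 13.4% of MEF-only peaks (12.7 to 14.1). This held in each width class, with 33.6%, 52.9% and 72.5% of shared MEF peaks against 5.56%, 10.8% and 27.9% of MEF-only peaks. Shared MEF peaks overlap ES H3K27me3 by definition, and 48.8% of ES H3K27me3 peaks carried H3K4me3 in ES cells. The contrast thus follows in part from the class rule. Of the MEF-only peaks, 85.4% overlapped neither H3K4me3 nor H3K27ac of ES cells, and 98.6% neither mark of MEF.

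ES-only H3K27me3 was often found where MEF carried active marks. Of the ES-only peaks 37.3% overlapped H3K4me3 in MEF (95% interval 35.6 to 39.1) and 24.6% overlapped H3K27ac in MEF (23.0 to 26.2), against 7.28% and 1.51% of the shared ES peaks. Both marks together lay on 21.9% of the ES-only peaks and on 0.904% of the shared ones. Among the ES-only peaks that had H3K4me3 in ES cells, 72.1% had H3K4me3 and 41.9% H3K27ac in MEF, against 10.1% and 11.02% of those without. In each of the 3 width classes the ES-only peaks exceeded the shared ES peaks for H3K27ac in MEF, with 18.0%, 24.3% and 37.1% against 1.00%, 1.60% and 1.68%. The reverse change was less frequent: 4.09% of MEF-only peaks (95% interval 3.70 to 4.51) overlapped H3K27ac of ES cells, against 1.04% of shared MEF peaks (0.680 to 1.58). The shared classes overlap H3K27me3 of the other cell type by definition. On H3K27me3 of the same cells H3K27ac was rare (0.417% of MEF and 1.03% of ES peaks), as was H3K4me3 in MEF (2.62%). Low shares of these marks in the shared classes thus follow in part from the class rule, and the contrasts only describe the classes. The MEF H3K27ac list was the longer, with 37379 peaks against 25273 in ES cells. The MEF H3K27me3 list was also the longer. The part of either in these shares was not tested.

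H3K27ac in the same cells was rare on H3K27me3 peaks. It lay on 36 of 2024 shared MEF peaks (1.78%), 11 of 9252 MEF-only peaks (0.119%), 12 of 2323 shared ES peaks (0.517%) and 42 of 2914 ES-only peaks (1.44%). These included 7 MEF and 17 ES peaks on chromosome Y. The enhancer mark H3K4me1 and the heterochromatin mark H3K9me3 were also uncommon, on 0.195% to 3.05% and 0.962% to 3.91% of the peaks of the 4 classes in their own cells. SUMO-1 and SUMO-2 lay on 0.832% to 3.81% and 0.151% to 4.22%. For H3K4me1, SUMO-1 and SUMO-2 the ES-only class had the highest share. For H3K9me3 this depended on the list: the H3K9me3 list of ES cells with a control siRNA (siCtrl, 21492 peaks) touched 0.961% of ES-only and 0.474% of shared ES peaks, where the list of wild type ES cells (8508 peaks) touched 3.91% and 0.990%. With the siCtrl list the shared MEF peaks, with 1.73% in MEF, had the highest share.

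**Figure D4:**
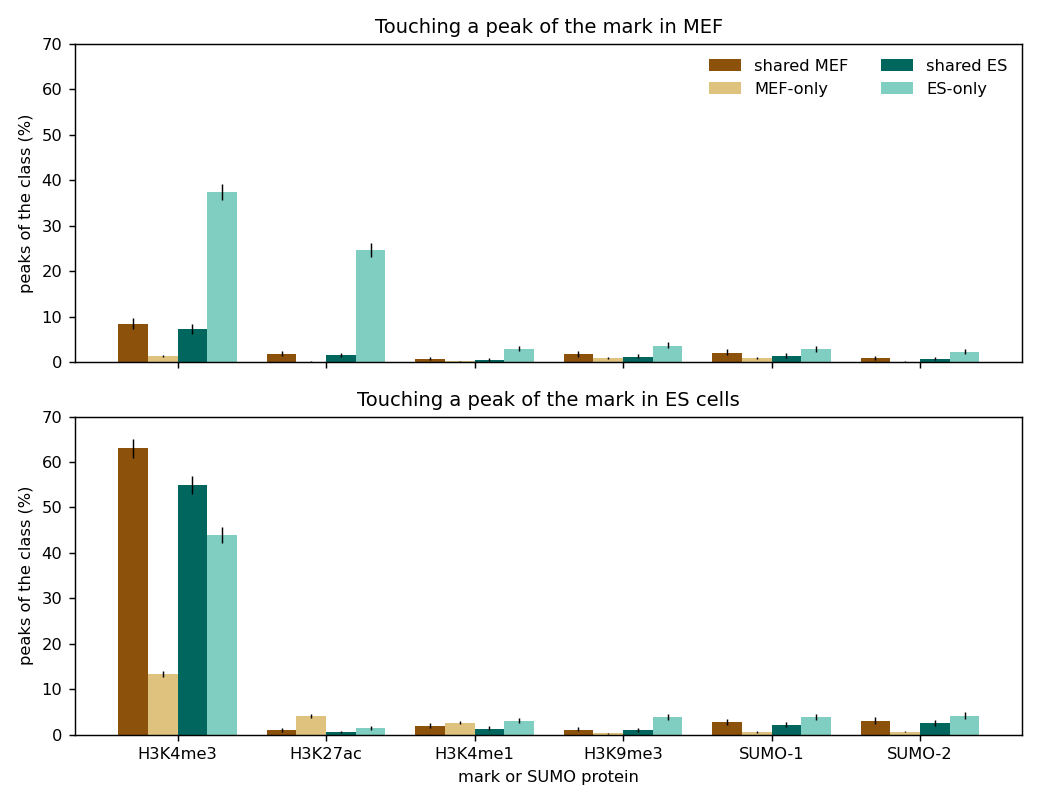
Percent of each class of H3K27me3 peaks that overlapped a peak of the named mark or SUMO protein in MEF (top) and in ES cells (bottom), with Wilson 95% intervals. H3K4me3 of ES cells lay on 63.1% of shared MEF and 54.9% of shared ES peaks, and the H3K27ac of MEF on 24.6% of ES-only peaks, while most other bars are under 5%.

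Compared with the other marks mapped in both cell types, H3K27me3 was shared less than H3K4me3 and more than H3K4me1. H3K4me3 had 93.5% of its MEF peaks and 51.9% of its ES peaks in common, H3K27ac 33.2% and 46.0%, and H3K4me1 5.80% and 12.1%. H3K9me3 (9.84% and 13.2%), SUMO-1 (9.16% and 9.24%) and SUMO-2 (10.0% and 8.33%) were shared less than H3K27me3 in both directions. The lists differed in length and covered bases, so the order is a description of these lists.

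In MEF after 4 days of OKSM, H3K27me3 was found at nearly all shared peaks and at a minority of the cell-specific ones. The D4 shCtrl list, with 7236 peaks of median width 2461.5 bp, touched 91.9% of shared MEF peaks (95% interval 90.6 to 93.0) and 36.2% of MEF-only peaks (35.2 to 37.1). It touched 92.5% of shared ES peaks (91.3 to 93.5) and 22.6% of ES-only peaks (21.2 to 24.2). Among MEF-only peaks, those at sites with H3K4me3 in ES cells were retained in the D4 list in 90.6% of cases (of 1238) and the others in 27.7% (of 8014). Width again went with these shares, with 20.9%, 33.7% and 61.2% of MEF-only peaks from the narrow to the wide class. With Ubc9 depleted by a hairpin (D4 shUbc9, 7307 peaks) the 4 shares were 89.5%, 33.0%, 89.5% and 20.2%. The lists differed in their lowest listed score, which was 170 in D4 shCtrl and 240 in D4 shUbc9, against 101 in MEF and in ES cells. The median score was 125 for MEF-only and 176 for shared MEF peaks. A peak absent from a D4 list may thus lie under its cut-off, and the part of this in the shares was not tested. H3K27ac of D4 shCtrl cells lay on 28.3% of ES-only peaks and 5.29% of shared ES peaks.

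Peaks were spread unevenly over the chromosomes. On the 19 autosomes there were 1.42 to 2.93 MEF peaks per ES peak, and 28.8% to 54.2% of ES peaks were shared. Chromosome 8 had the lowest ratio, with 524 MEF and 369 ES peaks, and 29.8% of its ES peaks were shared. Chromosome X was the reverse of the autosomes, with 83 MEF and 112 ES peaks, and 24.1% of these ES peaks were shared. Chromosome Y held 13 MEF and 28 ES peaks, and 16 of the 20 highest ES scores were on it, including the first 11. The highest ES score, 1621, belonged to chrY:1790129-1791183, and the highest off that chromosome, 626, to chr2:38195721-38197610, a shared peak of 1890 bp. Leaving out X and Y gave shared shares of 17.8% in MEF and 44.8% in ES cells.

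Transcripts of PRC2 were mostly higher in ES cells, and those of PRC1 went both ways. In the edgeR quasi-likelihood test with Benjamini-Hochberg adjustment, 90.5% of the 18149 genes tested differed between ES siCtrl and MEF shCtrl (47.7% higher and 42.8% lower in ES cells), so a call by itself does not set a gene apart. Cell type and the agent (siRNA or hairpin) cannot be told apart in this comparison, and whether replicates came from separate cultures is not in the labels, so p-values measure the spread between these libraries. Of the 12 PRC2 genes 10 were higher in ES cells, 1 was lower and 1 was not called, with a median log2 fold change of 1.78, against 0.13 over all genes tested. Of the 22 PRC1 genes 10 were higher, 10 lower and 2 not called, with a median of -0.08 that became positive with scaling by library size alone. That scaling moved the median of all genes to 0.27.

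Among the core subunits, Ezh2, the main H3K27 methyltransferase, stood at 19.6, 21.3 and 23.4 CPM in the MEF libraries and 164.6, 180.1 and 170.5 in the ES libraries. The groups did not overlap, and the fitted difference was 8.02-fold (log2 3.003, SE 0.08, adjusted p = 1.12e-11 by edgeR). Eed and Suz12, the subunits that hold the enzyme in its active form, were 6.62-fold and 5.49-fold higher. The histone-binding subunits Rbbp4 and Rbbp7, which also serve in other complexes, were 2.14-fold and 1.54-fold higher. Ezh1, the second methyltransferase, differed little, with 32.9 to 33.8 CPM in MEF and 36.6 to 37.5 in ES cells (1.11-fold, adjusted p = 0.0274 by edgeR). That call was lost in DESeq2 (adjusted p = 0.0822), in edgeR with no filter on low counts (adjusted p = 0.0512) or all RNA libraries in the fit (adjusted p = 0.505), and when any library but ES replicate 2 was left out (adjusted p in edgeR 0.0572 to 0.375).

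The accessory subunits of PRC2 showed the widest range. Jarid2, which helps bring PRC2 to its targets, had 25.4 to 26.5 CPM in MEF and 849.4 to 880.4 in ES cells, a 33.3-fold difference (log2 5.06, SE 0.06, adjusted p = 1.11e-13 by edgeR). Epop, found with PRC2 in pluripotent cells, was 55.1-fold higher, and Mtf2, one of the Polycomb-like proteins, 16.6-fold higher. Another Polycomb-like gene, Phf1, was 5.01-fold lower in ES cells, at 29.1, 31.6 and 30.5 CPM in MEF and 5.21, 6.95 and 6.10 in ES cells. The libraries of both groups overlapped for Phf19, the remaining Polycomb-like gene, at 7.91 to 9.72 and 7.93 to 9.02 CPM (adjusted p = 0.557 by edgeR). Aebp2 was 1.86-fold higher.

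In PRC1 the alternative subunits differed in direction. Of the Cbx genes, Cbx7 had 2.86 to 2.89 CPM in MEF and 189.5 to 207.8 in ES cells (68.8-fold higher, log2 6.10, SE 0.07, adjusted p = 1.1e-13 by edgeR), and Cbx2 was 2.995-fold higher. Cbx8 was 15.9-fold and Cbx6 3.40-fold lower in ES cells. Among the Pcgf genes, which define the variants of PRC1, Pcgf6 was 9.56-fold and Pcgf2 1.87-fold higher. Bmi1, which is Pcgf4, was 3.77-fold lower, Pcgf3 1.64-fold and Pcgf5 1.39-fold lower, and Pcgf1 was not called (adjusted p = 0.54 by edgeR). Of the ubiquitin ligases Rnf2 was 1.54-fold higher and Ring1 2.86-fold lower, and the call of Rnf2 was lost with all RNA libraries in the fit (adjusted p = 0.0649 by edgeR). Of the polyhomeotic genes Phc1 was 18.3-fold higher, while Phc2 was 5.53-fold and Phc3 1.83-fold lower. Rybp was 2.69-fold higher and its relative Yaf2 4.49-fold lower. L3mbtl2, Kdm2b and Bcor, partners in variant PRC1, were 15.2-fold, 6.31-fold and 2.18-fold higher, Scmh1 was 3.43-fold lower, and Bcorl1 was not called (adjusted p = 0.643 by edgeR). The MEF and ES libraries overlapped for Pcgf1 and Bcorl1. With 90.5% of all genes tested called, the number of calls does not set PRC1 apart.

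**Figure D5:**
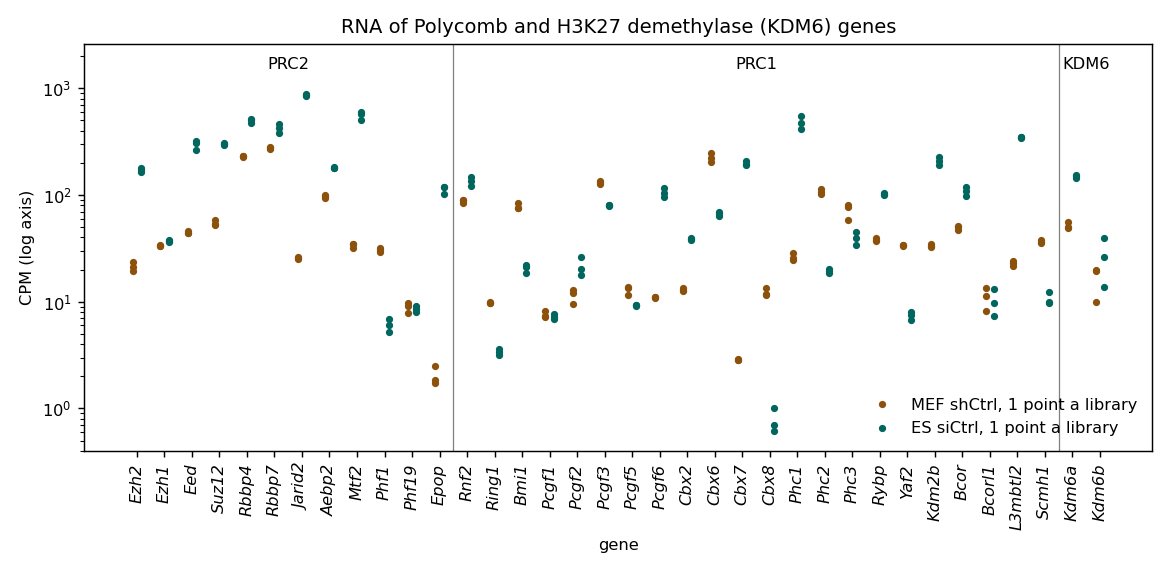
CPM (log axis) of PRC2, PRC1 and H3K27 demethylase genes, 1 point for each of 3 MEF shCtrl (brown) and 3 ES siCtrl (green) libraries. Libraries of the groups overlap for Phf19, Pcgf1, Bcorl1 and Kdm6b; levels are not corrected for gene length and are to be compared within a gene.

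The enzymes that oppose H3K27me3 or place the marks compared with it were higher in ES cells or not called. Kdm6a, an H3K27 demethylase, had 49.1 to 55.8 CPM in MEF and 145.3 to 152.9 in ES cells (2.90-fold higher). Kdm6b, the other one, spread widely, with 20.0, 9.97 and 19.2 CPM in MEF and 13.8, 39.3 and 26.2 in ES cells. It was not called (adjusted p = 0.0701 by edgeR), but it was without ES replicate 1 (adjusted p = 0.000915) and with scaling by library size alone (adjusted p = 0.022 by edgeR). The H3K27 acetyltransferases Ep300 and Crebbp were 4.30-fold and 1.81-fold higher. All 6 H3K4 methyltransferase genes were higher, by 2.67-fold (Setd1b) to 4.81-fold (Kmt2c). Of all genes tested, 90.5% were called and 47.7% were called higher in ES cells, so a call alone does not set these genes apart. For Setd1b the libraries of the groups overlapped, at 3.86 to 11.4 CPM in MEF and 10.7 to 34.2 in ES cells. For these 6 and for both acetyltransferases the lowest library was replicate 2 in MEF and replicate 1 in ES cells, and the part of these libraries in the differences was not tested.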

How the data were processed

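The peak members and gene lists were chosen with earlier results of these data known. For each antibody and condition the authors deposited 1 peak list on mm9, joined from both replicates, with a score per peak that equalled 10 times a −log10 significance column of the same lists, rounded down. The submitters' processing notes name Bowtie, MACS2 and bedtools 2.19.1; no source used here gives the peak threshold. The H3K27me3 lists of MEF and ES cells alone among the 32 lists repeated coordinates over several lines (37.7% of MEF and 26.9% of ES peaks, up to 7 lines). The repeated lines of a peak held the same score and summit position and were collapsed. Overlaps were computed in Python 3.11.15 and tested on simulated intervals. Score and width were compared within a list.

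Per the file headers, the authors deposited RNA as a read count per gene (Entrez identifier) or repeat family; STAR 2.5.0a and featureCounts are named in the submitters' processing notes. No source used here gives the strand setting, so antisense and overlapping genes may share counts, and related genes may too. The 6 libraries held 39.9 M to 54.0 M gene counts; repeat families (8.60% to 24.7% of all counts) stayed out of library sizes. Genes were kept by filterByExpr (minimum count 10), scaled by TMM and tested two-sided in edgeR 4.0.16 (R 4.3.3), with an adjusted p under 0.05 as a call; DESeq2 1.42.0 was run beside it. SE values are those implied by the fold change and the test statistic. Symbols came from a RefSeq table (GRCm38.p6), used for names alone. Named were the 3 widest and 3 highest-scoring peaks per class, the 5 largest joined regions per list and per cell-specific set, of which a selection is printed, and every listed gene but 1, which is not reported here or counted in its list. Alternatives are in the closing section.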

Additional observations from a re-analysis of the deposited data

How the results depend on the processing

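In each alternative run shared peaks were wider and ranked higher than cell-specific ones, and shared MEF peaks exceeded MEF-only peaks for H3K4me3 in MEF; the order of shared and ES-only peaks for H3K4me3 in ES cells turned in some, and the cause was not tested. With at least 50% of a peak's own length covered, 13.9% of MEF and 41.1% of ES peaks were shared, the width ratios of shared to cell-specific peaks were 1.83 and 1.48, the gaps in score percentile 32.4 and 20.0 points, and H3K4me3 in MEF lay on 9.73% of shared MEF peaks. With the midpoint inside the other peak these were 14.5%, 41.2%, 1.88, 1.49, 32.8 and 20.0. Joining peaks within 5 kb gave 18.8% and 40.2% shared, ratios of 3.77 and 2.56, gaps of 38.4 and 27.4, H3K4me3 in the same cells on 14.9% of shared MEF, 2.05% of MEF-only, 83.1% of shared ES and 54.8% of ES-only regions, and H3K27ac of the other cell type on 5.32% of MEF-only (the ES mark) and 29.2% of ES-only regions (the MEF mark). The higher-scoring 50% of each list gave 20.5% and 48.4%, ratios of 1.89 and 1.48, gaps of 14.5 and 8.39, H3K4me3 on 1.95% of MEF-only, 59.9% of shared ES and 57.7% of ES-only peaks, and H3K27ac of the other cell type on 5.68% of MEF-only and 28.3% of ES-only peaks. With the MEF list limited to the number of ES peaks the values were 30.1% and 36.8%, ratios of 1.90 and 1.58, gaps of 13.52 and 21.9, H3K4me3 on 6.99% of shared MEF and 1.72% of MEF-only peaks, and H3K27ac on 6.36% of MEF-only and 22.0% of ES-only peaks. All lines as deposited gave 46.1% of ES peaks shared, ratios of 2.04 and 1.53, gaps of 34.6 and 20.6, and H3K4me3 on 45.8% of ES-only peaks, and without X and Y the MEF width ratio was 2.08 (2.07 with them).

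Changing the overlap with the other mark moved the levels more. Requiring 50% of the mark's peak gave H3K4me3 on 3.80% of shared MEF, 0.562% of MEF-only, 40.8% of shared ES and 23.1% of ES-only peaks, and H3K27ac of the other cell type on 2.88% of MEF-only and 15.6% of ES-only peaks. A mark within 1 kb gave 14.5%, 3.03%, 73.1%, 64.0%, 5.92% and 34.9%. The higher-scoring 50% of the mark's list gave 0.0988%, 0.0324%, 16.4%, 21.6%, 2.29% and 16.1%, and the ES H3K4me3 list limited to the number of MEF peaks, an alternative chosen after seeing the data, 26.9% of shared ES and 28.3% of ES-only peaks. In both of these the order of shared and ES-only peaks turned. The shares of 0.0988% (of 2024 shared MEF peaks) and 0.0324% (of 9252 MEF-only peaks) rest on very few peaks, so their order carries little weight. In 3 width classes, from narrow to wide, H3K4me3 in the same cells lay on 8.51%, 12.9% and 6.61% of shared MEF, 0.936%, 1.54% and 1.70% of MEF-only, 27%, 50% and 71.4% of shared ES and 24.6%, 50.4% and 70.2% of ES-only peaks, so the order turned in the middle class of the ES list. H3K27ac of the other cell type lay on 2.61%, 3.59% and 6.84% of MEF-only and 18.0%, 24.3% and 37.1% of ES-only peaks.

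The count of genes called (16418) was 16046 in DESeq2, 18221 with no filter on low counts and 16185 to 16617 with 1 library left out. Replicate numbers did not pair the samples (correlations of same-numbered libraries -0.16, -0.21 and 0.01), and a replicate block gave 16086 calls; among the genes named it ended the call of Ezh1 alone (adjusted p = 0.0921 in edgeR). Of 528 gene values under alternatives, 4 changed sign, all in genes that were not called: with library sizes alone Phf19 had a log2 fold change of 0.0689, Pcgf1 0.07085 and Bcorl1 0.0358, and with 1 library left out Bcorl1 ranged from -0.337 to 0.0868 (without ES replicate 1). Calls were lost in 10, of which 9 were Ezh1 and 1 was Rnf2 (with all RNA libraries in the fit, adjusted p = 0.0649 in edgeR), and gained in 3, all Kdm6b. The number of reads behind each peak list is unknown, so a peak missing from a list is not shown to lack the mark.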

Other observations

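At day 4 of OKSM the 3 mapped reprogramming factors differed in how often they lay on these H3K27me3 peaks. Sox2 peaks of D4 shCtrl cells touched 59.4% of shared MEF peaks (95% interval 57.3 to 61.6), 9.53% of MEF-only, 55.0% of shared ES and 38.8% of ES-only peaks. Oct4 touched 8.40%, 1.34%, 7.58% and 13.7%, and Klf4 10.9%, 2.88%, 9.38% and 26.7%, although the Klf4 list was the longest of the 3 (34163 peaks, against 20197 for Sox2 and 16740 for Oct4). Among shared ES peaks Sox2 lay on 78.4% of those with H3K4me3 in ES cells and 26.4% of those without. Counted over all H3K4me3 peaks of ES cells, Sox2 touched 76.7% of the 2295 with H3K27me3 in ES cells and 43.0% of the 24014 without. For Oct4 the order was the opposite, with 17.5% and 29.2%, as for Klf4, with 31.6% and 47.3%. These lists come from 1 condition with 2 replicates joined, the median widths of the H3K4me3 peaks were 1438 and 1322 bp, and the part of width and list length in the contrast was not tested.

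Chromosome 8 stood at the upper end of the ratio of ES to MEF peaks in other lists too. Relative to the median over autosomes this ratio was 1.52 for H3K27me3, 2.07 for H3K9me3, 1.56 for H3K4me1, 1.45 for SUMO-1, 1.37 for SUMO-2, 1.11 for H3K27ac and 1.02 for H3K4me3. It ranked first among the 19 autosomes for H3K27me3, H3K9me3, H3K4me1 and SUMO-1. All 28 ES H3K27me3 peaks on chromosome Y overlapped H3K9me3 of wild type ES cells, 24 overlapped SUMO-1 and 17 overlapped H3K27ac of ES cells, while over the whole ES list H3K27ac lay on 1.03% of peaks. The 13 MEF peaks on chromosome Y were alike. All 13 overlapped H3K9me3 of ES cells and SUMO-1 of MEF, and 7 overlapped H3K27ac of MEF, against 0.417% over the whole MEF list.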
